A study of Mus musculus with 4 samples.

Results

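The Ifit, Ifi44, Ifi27 and Ifi35 genes are interferon-induced genes, and 9 of them were followed here in mouse embryonic fibroblasts (MEFs), cells of connective tissue taken from embryos. They were chosen by name: Ifit1, Ifit2, Ifit3, Ifit3b, Ifi44, Ifi44l, Ifi27, Ifi27l2a and Ifi35. All 9 were found among the 39179 genes of the deposited table, Ifit3b through its Ensembl identifier because the table lists it under its older name I830012O16Rik. The cells were BALB/c MEFs at passage 2 in 4 libraries. The SON group (2 libraries, I and II) had been infected with lentivirus for Oct4 (Pou5f1), Stella (Dppa3) and Nanos2, 3 genes of germ and stem cells, and the GFP control group (2 libraries, I and II) with lentivirus for green fluorescent protein. Both groups were put in 2 µg/ml puromycin from 72 h after infection for 4 days and then grown for 21 days without it. Every library thus came from infected and drug-selected cells, with no uninfected cells among them. The virus received and the later culture of its cells cannot be told apart from the delivered genes.

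Type I interferons bind a receptor on the cell surface and activate the kinases Jak1 and Tyk2. These switch on the complex ISGF3, of which Stat2 and Irf9 are parts, and it enters the nucleus and binds the interferon-stimulated response element in promoters. Ifit proteins, built from tetratricopeptide repeats, are among the most strongly induced products: they bind viral RNA or parts of the translation machinery and limit translation of viral messages. Fibroblasts both make interferon beta and respond to it.

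Promoters of 3 of the 4 Ifit genes followed here, Ifit1, Ifit3 and Ifit3b, carry the core of that element close to their starts. The core was searched on both strands as GAAA, any 2 bases (NN) and GAAA again, in RefSeq promoter windows of GRCm38.p6, which run from 250 bases before to 50 after an annotated start. Windows were found for 7 of the 9 members, Ifi27 and Ifi27l2a being the other two. The core was present in 3 of the 7 (42.9%), and in 1079 of the 27025 genes with a window (3.99%). Among 51 other interferon-stimulated genes, 38 had a window and 20 of those held the core (52.6%). The Ifit paralogs Ifit1bl1 and Ifit1bl2, which are not among the 9 genes, also held it. Ifit1bl1 had 1 match in each of 2 windows, and Ifit1bl2 had 2 matches in 1 window and 0 in the other. The 2 matches of Ifit1bl2 are the same bases as the 2 of Ifit1, because the windows of this pair overlap. They are thus no further copies of the core. The windows below show where the matches lie in the most separated Ifit genes, with Ifi44 and Ifi35 beside them as members without a match. Capitals mark the match. In all 6 cases it lies on the strand opposite to the gene, so the printed strand shows the complement, TTTC, any 2 bases and TTTC. The windows are chr19:34640639-34640938 on the plus strand for Ifit1, chr19:34583279-34583578 on the plus strand for Ifit3, chr19:34607707-34608006 on the plus strand for Ifit3b, chr3:151749861-151750160 on the minus strand for Ifi44 and chr11:101448162-101448461 on the plus strand for Ifi35.
Ifit1: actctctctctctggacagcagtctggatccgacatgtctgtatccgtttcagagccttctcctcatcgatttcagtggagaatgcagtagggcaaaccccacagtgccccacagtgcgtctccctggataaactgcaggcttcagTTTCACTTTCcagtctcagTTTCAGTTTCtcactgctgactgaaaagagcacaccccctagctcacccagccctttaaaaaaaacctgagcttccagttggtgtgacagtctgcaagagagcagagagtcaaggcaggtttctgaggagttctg
Ifit3: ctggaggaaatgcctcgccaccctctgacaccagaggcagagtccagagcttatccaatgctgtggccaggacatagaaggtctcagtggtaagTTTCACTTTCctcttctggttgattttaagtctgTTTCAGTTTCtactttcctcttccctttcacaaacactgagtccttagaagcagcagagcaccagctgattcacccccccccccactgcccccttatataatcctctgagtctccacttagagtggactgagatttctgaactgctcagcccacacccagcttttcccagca
Ifit3b: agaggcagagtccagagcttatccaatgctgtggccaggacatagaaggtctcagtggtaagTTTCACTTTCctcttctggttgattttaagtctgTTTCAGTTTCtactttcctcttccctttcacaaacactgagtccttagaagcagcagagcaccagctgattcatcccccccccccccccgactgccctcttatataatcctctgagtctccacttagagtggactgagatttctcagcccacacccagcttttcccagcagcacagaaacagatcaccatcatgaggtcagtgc
Ifi44: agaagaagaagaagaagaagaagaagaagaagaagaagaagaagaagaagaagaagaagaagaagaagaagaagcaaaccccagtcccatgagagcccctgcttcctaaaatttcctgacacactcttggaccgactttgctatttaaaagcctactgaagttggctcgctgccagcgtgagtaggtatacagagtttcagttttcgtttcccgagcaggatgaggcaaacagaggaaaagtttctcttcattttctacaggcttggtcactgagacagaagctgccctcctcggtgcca
Ifi35: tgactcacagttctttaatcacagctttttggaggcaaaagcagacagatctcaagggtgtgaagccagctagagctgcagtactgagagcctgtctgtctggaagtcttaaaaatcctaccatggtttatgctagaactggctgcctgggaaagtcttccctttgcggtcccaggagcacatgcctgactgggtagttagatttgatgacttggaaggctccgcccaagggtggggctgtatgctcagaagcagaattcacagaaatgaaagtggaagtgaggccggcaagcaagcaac

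Each of the 3 promoters held 1 match of the letters GAAAGTGAAA and, nearer the start, 1 of GAAACTGAAA, both read on the opposite strand. Their farthest bases lay 104 and 85 bases before the start in Ifit1, 156 and 122 in Ifit3, and 188 and 154 in Ifit3b. The spacing of 34 bases between the matches was the same in Ifit3 and Ifit3b, whose windows were 99.2% identical over 260 aligned bases. A match is a description of letters, not of a bound factor, and a window without a match says only that these letters are not in it.

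**Figure D1:**
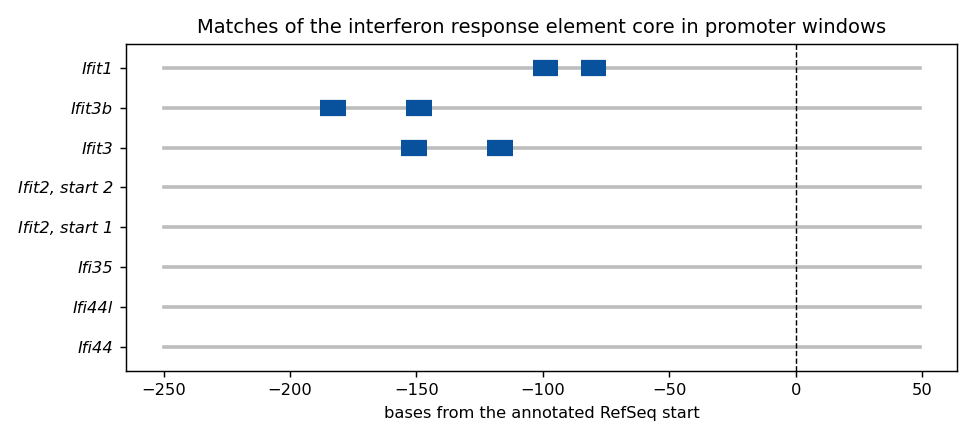
Position of each match of the response element core (bars) in the promoter windows of 7 members, in bases from the annotated RefSeq start (dashed line); Ifit2 has windows at 2 starts. Ifit1, Ifit3 and Ifit3b hold 2 matches each, all before the start, and the windows of Ifit2, Ifi35, Ifi44 and Ifi44l hold none.

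Library totals lay between 14680865 and 37097571 reads in genes, deeper in the GFP control (at least 28924700) than in SON (at most 17365551). The labels were checked on the delivered genes: Pou5f1, Dppa3 and Nanos2 had 0 or 1 read in each GFP control library and between 201 and 329 reads in each SON library. All 10 fibroblast markers, among them Col1a1 and Vim, were read in every library. Normalized counts are reads divided by 1 size factor per library, and group means are given ± SD (n = 2 per group), the GFP control before SON. Whether the libraries of a group were separate cultures is not stated, and p-values cover only the spread between these libraries, which may be technical. Differences are log2 differences, SON minus GFP control, on log2 of the normalized count plus 1.

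Of the 9 genes, 8 had enough reads to be tested, and all 8 had a lower mean in SON, by a median of -1.71 on the log2 scale against -0.01 over all 15283 tested genes. In bulk RNA, fewer cells of a type and less RNA per cell cannot be told apart. The separation was wide for Ifi27l2a, Ifi44, Ifit1, Ifit3 and Ifit3b (3.16-fold to 7.55-fold), smaller for Ifit2 (1.75-fold) and small for Ifi35 (1.24-fold) and Ifi27 (1.10-fold). These folds are the limma log2 differences put on a linear scale, not ratios of the group means. A log2 difference under -1 was measured for 5 of the 8, and for 5.34% of all tested genes. Both SON libraries lay below both GFP control libraries for 7 of the 8, where 23.7% of all tested genes did so. By limma over all genes 0 of the 8 passed an adjusted p of 0.05 (0.0196% of all tested genes passed as lower), and 6 were lower at an unadjusted p under 0.05 (6.57% of all tested genes). By edgeR 0 of the 8 were called lower (0.0196% of its tested genes). The authors' deposited table, made with DESeq2 on the same libraries, calls 5 of them lower at an adjusted p under 0.05, where it calls 2.59% of its genes lower. Without GFP control I the median was -1.07, and without GFP control II it was -2.36.

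**Figure D2:**
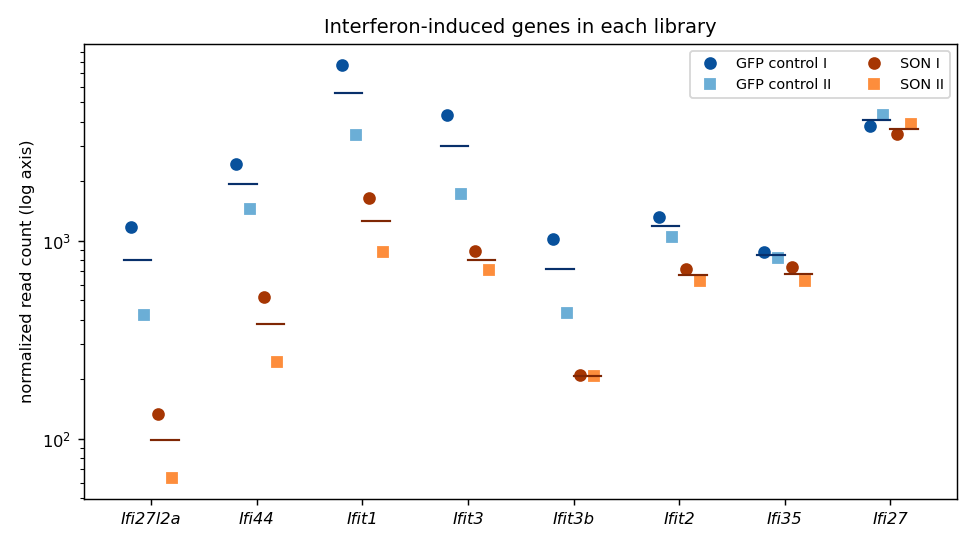
Normalized read count (log axis) of the 8 tested genes in each of the 4 libraries, with a line at each group mean (n = 2 per group). In all but Ifi27 both SON points lie under both GFP control points, and in these 7 genes GFP control I is the highest and SON II the lowest.

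The RNA-binding Ifit genes lie together on chromosome 19 of GRCm38, and both SON libraries lay below both GFP control libraries for all 4 of them (23.7% of all tested genes). Ifit1, which binds the ends of RNA that lack the host's cap methylation, lies at 34640871 to 34650009 in 2 exons (ENSMUSG00000034459). It measured 7748 in GFP control I and 3404 in GFP control II, and 1644 in SON I and 875 in SON II. The groups did not overlap, but the 2 GFP control libraries were themselves 2.28-fold apart and the SON libraries 1.88-fold, and the nearest pair across the groups differed by 2.07-fold. Its group means were 5576 ± 3072 and 1260 ± 544. The log2 difference was -2.10 ± 0.48 (SE; 95% interval -3.33 to -0.87; limma adjusted p = 0.264). Without GFP control I it was -1.50, and without GFP control II it was -2.69.

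Ifit2, which is reported to bind AU-rich RNA and to promote cell death, lies at 34550694 to 34576419 (ENSMUSG00000045932). Its values were 1322 and 1049 in GFP control I and II, and 720 and 626 in SON I and II. Libraries of 1 group stayed close, at most 1.26-fold apart, and the groups did not overlap. The log2 difference was -0.81 ± 0.18 (SE; 95% interval -1.28 to -0.34; limma adjusted p = 0.264), and the authors' deposited table gives it an adjusted p of 0.0551. The estimate was thus nearer 0 than that of Ifit1, with tighter libraries. The difference between the 2 genes in response was not tested.

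Ifit3, whose human counterpart is a partner that stabilizes IFIT1 on RNA, lies at 34583531 to 34588731 (ENSMUSG00000074896), and its close copy Ifit3b at 34607970 to 34613401 (ENSMUSG00000062488). Ifit3 measured 4311 and 1715 in GFP control I and II, and 892 and 715 in SON I and II. Ifit3b measured 1015 and 429, and 209 and 207. Both genes were high in GFP control I, with a gap inside the GFP control (2.51-fold and 2.36-fold) larger than the gap between GFP control II and SON I (1.92-fold and 2.06-fold). The log2 difference was -1.77 ± 0.45 (SE; limma adjusted p = 0.271) for Ifit3 and -1.66 ± 0.42 (SE; limma adjusted p = 0.274) for Ifit3b. Without GFP control I these were -1.10 and -1.04, and without GFP control II -2.43 and -2.28.

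The longest transcripts of Ifit3 and Ifit3b were 98.0% identical over 1697 aligned bases in the GENCODE annotation. Of the 50-base windows of Ifit3 transcripts, 51.2% also occur in Ifit3b, and 45.0% of those of Ifit3b occur in Ifit3 or E2f1. How the authors' counting treated reads with several hits was not given in the sources used here, so the split between the copies is uncertain. Summed to 1 feature, their log2 difference was -1.74 (limma adjusted p = 0.270). Per kilobase of exon, Ifit3 stood 4.87-fold, 4.58-fold, 4.90-fold and 3.96-fold above Ifit3b in GFP control I, GFP control II, SON I and SON II. The ratio was lowest in SON II, where it rests on 487 reads of Ifit3 and 141 of Ifit3b. Whether it differs between libraries was not tested. Ifit1 shared 7.13% of its 50-base windows with the paralogs Ifit1bl2 and Ifit1bl1, and Ifit2, Ifi44 and Ifi27 shared 0%.

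The paralogs inside the cluster were read at far lower levels, without overlap of the groups for Ifit1bl2 and with overlap for Ifit1bl1. Ifit1bl2 starts 128 bases from Ifit1 on the other strand, so the promoter windows of the pair overlap. It measured 41.8 and 32.7 (GFP control) against 28.6 and 11.8 (SON), a log2 difference of -0.97 ± 0.53 (SE; limma adjusted p = 0.522). Ifit1bl1, between Ifit3 and Ifit3b, measured 29.2 and 42.2, and 23.2 and 36.7, with overlapping groups (log2 -0.26 ± 0.42, SE; limma adjusted p = 0.850). At these depths, between 8 and 71 reads per library, neither difference was resolved. The 95% intervals were -2.31 to 0.38 for Ifit1bl2 and -1.33 to 0.82 for Ifit1bl1.

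Flanking genes had smaller log2 differences than Ifit1, Ifit3 and Ifit3b, but that of Ch25h was wider than that of Ifit2 (log2 -0.81). These contrasts were not tested. Lipa, a lysosomal lipase, measured 3440 and 2689 against 2362 and 2386 (log2 -0.36), and Slc16a12, a solute carrier, 29.2 and 32.7 against 27.3 and 29.4 (log2 -0.12). Ch25h makes 25-hydroxycholesterol and is itself known as an interferon-stimulated gene. It measured 1457 and 1273 against 522 and 993 (log2 -0.92; limma adjusted p = 0.369).

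**Figure D3:**
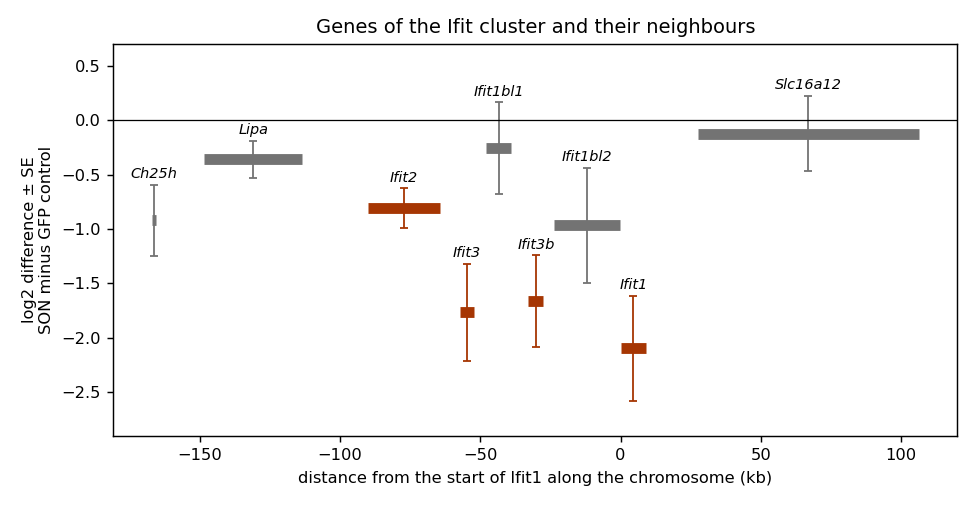
Log2 difference (SON minus GFP control, ± SE) of each tested protein-coding gene of the Ifit cluster and its flanks, against distance in kb from the start of Ifit1; bars span the genes, members in brown and others in grey. Ifit1, Ifit3 and Ifit3b lie at -1.66 or below, Ifit2 at -0.81, and the other 5 genes between -0.97 and -0.12.

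Ifi44 and Ifi44l lie next to each other on chromosome 3 and differed widely in level. Ifi44 encodes a cytoplasmic protein linked to reduced growth of cells and of some viruses, and lies at 151730922 to 151749960 on the minus strand (ENSMUSG00000028037). It measured 2434 and 1447 in GFP control I and II, and 517 and 244 in SON I and II. All GFP control values lay above all SON values, with 2.80-fold between the nearest pair. The log2 difference was -2.40 ± 0.43 (SE; 95% interval -3.50 to -1.29; limma adjusted p = 0.230). Ifi44 was called lower by DESeq2 with all 4 libraries.

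Ifi44l, at 151758737 to 151762892 on the same strand (ENSMUSG00000039146), had 0 reads in GFP control I and II and 2 reads in SON I and II. A count of 0 allows up to 3 reads, or 2.51 and 1.78 normalized counts in GFP control I and II, so no difference was detectable at this depth and none is given. Ptgfr, the receptor for prostaglandin F2α, is the protein-coding gene on the other side of Ifi44l, 33610 bases away. It measured 1188 and 439 (GFP control) against 210.0 and 134 (SON), without overlap (log2 -2.10 ± 0.52, SE; limma adjusted p = 0.270). The authors' deposited table calls Ptgfr lower.

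Ifi27 and Ifi27l2a, small membrane proteins linked to mitochondria and the nuclear envelope, are neighbours on chromosome 12 and were read very differently. Ifi27l2a, at 103442167 to 103443680 on the minus strand (ENSMUSG00000079017), measured 1169 and 420 in GFP control I and II, and 134 and 63.2 in SON I and II. The groups were 3.15-fold apart at their nearest, beside gaps of 2.78-fold within the GFP control and 2.12-fold within SON. The log2 difference was -2.92 ± 0.60 (SE; 95% interval -4.44 to -1.39; limma adjusted p = 0.249). Without GFP control I it was -2.18, and without GFP control II it was -3.65. The SON values rest on 98 and 43 reads.

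Ifi27, at 103434211 to 103440239 on the plus strand (ENSMUSG00000064215), measured 3777 and 4337 in GFP control I and II, and 3463 and 3890 in SON I and II. The groups overlapped, and here the lower library of each group was number I. The log2 difference was -0.14 ± 0.15 (SE; 95% interval -0.53 to 0.25; limma adjusted p = 0.757). The lower bound of that interval is nearer 0 than the estimate for Ifit2 and for each of the 5 more widely separated genes. Per kilobase of exon, Ifi27 stood 1.02-fold above Ifi27l2a in GFP control I, 3.26-fold in GFP control II, 8.18-fold in SON I and 19.4-fold in SON II. The 2 genes were thus about level in GFP control I alone. The paralog Ifi27l2b, 7218 bases from Ifi27l2a, had a difference of the opposite sign, with 117 and 191 (GFP control) against 475 and 219 (SON) (log2 1.10 ± 0.46, SE; limma adjusted p = 0.413).

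Ifi35, which acts in a complex with the protein Nmi, lies on chromosome 11 at 101448407 to 101458698 (ENSMUSG00000010358). Its values were 874 and 818 in GFP control I and II, and 738 and 626 in SON I and II. The groups did not overlap, but the nearest pair was only 1.11-fold apart. The log2 difference was -0.32 ± 0.16 (SE; 95% interval -0.73 to 0.10; limma adjusted p = 0.503). Its exons overlap those of Gm11626 on the opposite strand by 290 bases, and reads without strand cannot be assigned to one of the pair. Nmi had the wider separation, with 179.6 and 133 (GFP control) against 79.1 and 63.2 (SON) (log2 -1.12 ± 0.30, SE; limma adjusted p = 0.278).

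Levels of the genes can be set beside each other only per length. In normalized reads per kilobase of exon, the GFP control order was Ifi27 (2765 ± 270), Ifit1 (2099 ± 1156), Ifit3 (1727 ± 1052), Ifi27l2a (1717 ± 1144), Ifi35 (490 ± 23.2), Ifit3b (361 ± 207), Ifi44 (317 ± 114) and Ifit2 (302 ± 49.2). Among the first 4 each overlapped the next over the GFP control libraries, as among the last 4, and every library of the first 4 lay above every library of the last 4. In SON the order was Ifi27 (2506 ± 206), Ifit1 (474 ± 205), Ifit3 (460 ± 71.5), Ifi35 (395 ± 45.8), Ifi27l2a (213 ± 108), Ifit2 (171 ± 16.96), Ifit3b (104 ± 0.53) and Ifi44 (62.1 ± 31.5). Ifi27 stood apart from all others in both SON libraries, while Ifit1, Ifit3 and Ifi35 overlapped, as did Ifi27l2a and Ifit2. Ifit3b and Ifi44, at the end of the order, were parted from their neighbours. Ifi27l2a thus stood above Ifi35 in both GFP control libraries and below it in both SON libraries.

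**Figure D4:**
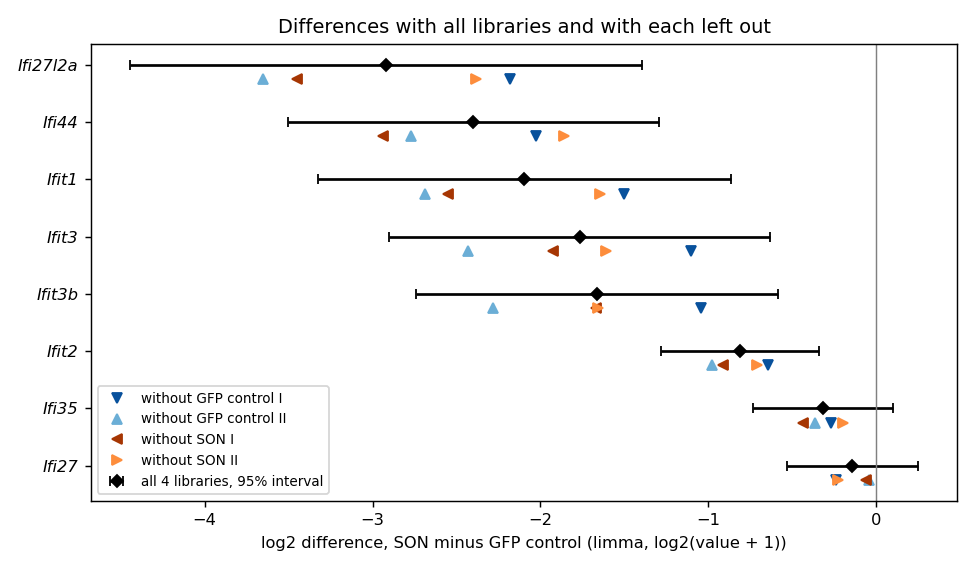
Log2 difference (SON minus GFP control, limma on log2 of the value plus 1) of the 8 tested genes with all 4 libraries (diamonds with the 95% interval, n = 2 per group) and with each library left out (triangles). Leaving out GFP control I brings Ifit3 to -1.10 and Ifit3b to -1.04, and no triangle crosses 0.

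Libraries of the same group differed along the same genes. GFP control I was the highest library, GFP control II the second, SON I the third and SON II the lowest for 7 of the 8 tested genes, an order held by 8.64% of all tested genes. The median log2 ratio of GFP control I over II was 0.97 for the 8 genes and 0.01 over all tested genes, and that of SON I over II was 0.28 and 0.03. Within the GFP control the log2 ratio was widest in Ifi27l2a (1.48) and, of the 7 positive ones, narrowest in Ifi35 (0.10). Within SON it was widest in Ifi44 and Ifi27l2a (1.08 each) and narrowest in Ifit3b (0.01). Ifi27 had the opposite sign in both groups.

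DESeq2 on the recovered reads called 6 of the genes lower, Ifi27l2a, Ifi44, Ifit1, Ifit2, Ifit3 and Ifit3b (2.7% of its genes). With a library left out, 1 group holds a lone library, which is assumed to vary like the libraries of the other group. Without GFP control I DESeq2 called Ifi44 alone (0.257% of its genes), and without GFP control II it called Ifi27l2a, Ifi44, Ifit1, Ifit3 and Ifit3b (2.28%). Leaving out SON I (2.04%) or SON II (2.4%), it called Ifi27l2a, Ifi44 and Ifit3b. In the authors' deposited table the 5 genes called lower are Ifi27l2a (adjusted p = 7.67e-06), Ifi44 (1.01e-05), Ifit1 (2.91e-04), Ifit3 (0.00104) and Ifit3b (0.00281).

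The pathway upstream of these genes was read from ligand to transcription factor. Interferon genes were scarcely read: of 9 interferon genes in the list, 8 had at most 3 reads in every library, and Ifnb1, interferon beta, had 4 and 3 reads in the GFP control and 1 read in each SON library. At this depth no difference in ligand RNA was detectable. The 15 other genes of the list were tested, with a median log2 difference of -0.57, 14 of them negative and 1 positive. Of these 15, 0 passed limma over all genes, 7 were lower and 0 higher at an unadjusted p under 0.05 (6.57% of all tested genes were lower), and 5 are called lower in the authors' deposited table (Stat2, Irf9, Irf7 and Usp18 among them), which calls 2.59% of its genes lower. For comparison, 51 other interferon-stimulated genes were all negative, with a median of -1.46. By limma 0 of the 51 passed over all genes, 44 were lower at an unadjusted p, and, beside the same shares of all genes, 34 are called lower in the authors' deposited table.

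The receptor genes had smaller differences than Stat2, a contrast that was not tested. Ifnar1, which binds Tyk2, measured 3222 and 2114 (GFP control) against 2054 and 1551 (SON) (log2 -0.55 ± 0.26, SE; limma adjusted p = 0.471), and Ifnar2, which binds Jak1, 1734 and 1219 against 907 and 881 (log2 -0.70 ± 0.21, SE; limma adjusted p = 0.318). The lowest GFP control value of Ifnar1 was close to the highest SON value, while Ifnar2 was more clearly parted. The receptor-bound kinases were close to level, with overlapping groups: Jak1 had a log2 difference of -0.08 ± 0.17 (SE; limma adjusted p = 0.883) and Tyk2 one of 0.05 ± 0.16 (SE; limma adjusted p = 0.928). Irf3, a factor that starts interferon production, also overlapped (log2 -0.06 ± 0.15, SE; limma adjusted p = 0.905). Jak1, Tyk2 and Irf3 were chosen for naming after their values were seen.

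Stat2 and Irf9 were parted without overlap. Stat2, which carries the complex's activation domain, measured 5315 and 3595 against 1951 and 1537 (log2 -1.34 ± 0.24, SE; limma adjusted p = 0.230). Irf9, the subunit that binds DNA, measured 2209 and 1780 against 1214 and 851 (log2 -0.96 ± 0.23, SE; limma adjusted p = 0.270). Irf7, an interferon-induced factor that amplifies interferon production, had the widest split of the list, with 4461 and 1582 against 620 and 385 (log2 -2.44 ± 0.53, SE; limma adjusted p = 0.259). Usp18, which removes ISG15 from proteins and blocks signalling at Ifnar2, measured 3216 and 2125 against 1164 and 502 (log2 -1.77 ± 0.44, SE; limma adjusted p = 0.270). Stat2, Irf9, Irf7 and Usp18 each had the same order of the 4 libraries as Ifit1. Of the 15 tested genes of the list, 7 held that order (8.64% of all tested genes), and Jak1, Tyk2 and Irf3 were among those that did not.

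Markers of other cells that respond to interferon were read in the same libraries. The summed level of the 9 genes was 22650 and 13620 in GFP control I and II, and 8319 and 7249 in SON I and II. That of 12 macrophage markers was 1460 and 1533, and 477 and 1316. Both SON sums lay below both GFP control sums, and SON I was the lowest. Of the 12 macrophage markers, 10 were tested and all 10 were negative (median -0.72). By limma 1 of the 10 was lower at an unadjusted p under 0.05 (6.57% of all tested genes). Both SON libraries lay below both GFP control libraries for 4 of the 10 (23.7% of all tested genes). As single genes, 0 of the 10 held the order of libraries of the sum of the 9 genes (8.64% of all tested genes). Their median log2 ratio of library I over II was -0.40 in the GFP control and -1.75 in SON, against 0.97 and 0.28 for the tested members. The authors' deposited table calls 0 of the 10 lower, where it calls 2.59% of its genes lower. Adgre1, Tyrobp and Fcer1g had 0 reads in SON I. The part of the macrophage markers in the result was not tested.

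The 10 fibroblast markers summed to 829274 and 357895 (GFP control) and to 264680 and 240649 (SON). These sums had the same order of libraries as the sum of the 9 genes. As single genes, 4 of the 10 markers held that order (8.64% of all tested genes). Of the 10 markers, 8 were negative and 2 positive (median -1.33, or -0.54 without GFP control I). By limma 0 passed over all genes. At an unadjusted p under 0.05, limma gave 6 lower (6.57% of all tested genes) and 0 higher (916 of all 15283 tested genes). Both SON libraries lay below both GFP control libraries for 7 of the 10 (23.7% of all tested genes). The authors' deposited table calls 5 of the 10 lower, where it calls 2.59% of its genes lower. The part of the fibroblast markers in the result was not tested. Of 4 markers of plasmacytoid dendritic cells, the defining Siglech had 10, 4, 0 and 2 reads in the libraries in the same order. Normalized, these were 8.35, 2.38, 0 and 2.94. Ccr9 had 5, 10, 2 and 2 reads. Tcf4 measured 3202 and 1939 (GFP control) against 2019 and 2381 (SON), with overlapping groups. Bst2, at 5786 and 4898 against 2608 and 2106, is itself an interferon-stimulated gene in the list of 51. The 6 lymphocyte markers summed to at most 16.2 and none was tested. Endothelial markers summed to between 119 and 250. Of 4 tested, 2 were negative and 2 were higher at an unadjusted limma p under 0.05 (916 of all 15283 tested genes were higher). Epithelial markers summed to between 74.3 and 168 (1 tested).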

How the data were processed

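Messenger RNA libraries of 4 MEF samples were made with the TruSeq mRNA kit v2, per the labels' protocols, and groups and numerals come from the sample titles. The submitters' processing notes list DESeq2, Subread, featureCounts, STAR 2.4.0j, HTSeq 0.5.3p3, TopHat2 2.0.11 and CASAVA 1.8.1, and GRCm38 (mm10), without saying which made this table. The authors deposited a signal per gene and library, reads divided by a size factor, which was 1.20 and 1.68 for the GFP libraries against 0.733 and 0.681 for the SON libraries. Within 0.01 reads, 100% of the values were whole multiples of 1 step, which gave back the reads. Per the file headers, the table also holds the authors' DESeq2 log2 fold change, p-value with adjusted p-value, and a Wald statistic (a score, not used here). The deposited table of repeats was not used.

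The test was limma 3.58.1 (R 4.3.3) with a trend, on log2 values after adding a pseudocount of 1, two-sided, Benjamini-Hochberg adjusted over the 15283 genes kept by filterByExpr of edgeR 4.0.16, threshold 0.05. Intervals (95%) come from the same fit. It was tested on simulated data. Alternatives were pseudocounts of 0.1 and 10, other filters (none, or 1 CPM in 2 libraries), TMM and RLE scaling, edgeR, DESeq2 1.42.0 and limma voom on the recovered reads, a block on the numerals, Ifit3 with Ifit3b summed, and each library left out. DESeq2 with a library left out was chosen after seeing the data. No pair of libraries was a copy (chi-square per degree of freedom at least 54.2). Exon lengths, coordinates and overlaps come from GENCODE M21 of GRCm38, and neighbours are protein-coding genes within 100 kb.

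The 9 genes and all lists were chosen with earlier results of these data known, so no list was tested and no p was adjusted over a list. The naming rule took the 9 genes, their paralogs and Nmi, 8 signalling genes (1 of them is not reported here), tested neighbours (some given as counts) and the 5 genes with the most similar profile. Ifi27l1 was not found by name.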

Additional observations from a re-analysis of the deposited data

How the results depend on the processing

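All 8 tested genes kept a lower mean in SON under every alternative run, 19 for each gene (18 for Ifit3b), and outside DESeq2 0 of them passed the threshold under any: the smallest adjusted p was 0.0518, for Ifi44 and Ifit1 with the replicate block. The 2 scalings, the filters and the pseudocounts left the median of the 8 genes between -1.72 and -1.69. DESeq2 called 6 genes of the 8 lower, and 236 genes higher and 381 lower in all, against 5 and 3 by limma. Limma voom called 3 higher and 1 lower, and a pseudocount of 0.1 gave 3 higher. With a library left out, so that a lone library is assumed to vary like the other group, limma gave a median between -2.36 and -1.07 and called 0 of the 8 each time, with 0 to 8 genes higher and 0 to 24 lower in all. DESeq2 with a library left out called 1 to 5 of the 8, with a median between -2.34 and -1.07, and 20 genes higher and 34 lower without GFP control I, 138 and 308 without GFP control II, 149 and 264 with SON I left out, and 322 and 331 with SON II left out. The cause of these shifts was not tested.

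The numerals I and II are no stated pairing. The differences I minus II of the 2 groups had a Pearson correlation of 0.22 over 15283 genes, and genes are no independent replicates. With the replicate block limma called 4 genes higher and 7 lower in all. With 2 libraries per group, Ifi27 and Ifi35 differences smaller than their intervals cannot be resolved, and Ifi44l and the interferon genes were limited by depth.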

Other observations

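Genes outside the list with the most similar profile were searched by the Euclidean distance, over the 4 libraries, between a gene's centred log2 values and the mean centred profile of the 8 tested genes (1.14, 0.37, -0.53 and -0.99 in GFP control I, GFP control II, SON I and SON II). The nearest was Bcl6b, a zinc finger repressor related to Bcl6 (distance 0.037), followed by Bcl11a, a zinc finger repressor (0.12), Gbp7, an interferon-induced GTPase (0.14), Il1r1, the receptor of interleukin 1 (0.14), and Clec2d, a lectin-like ligand of natural killer receptors (0.15). Bcl6b measured 205 and 118 (GFP control) against 62.7 and 47.0 (SON), and Il1r1 measured 10003 and 5095 against 2902 and 2162. The members themselves, not picked by distance, lay from 0.48 (Ifit3 and Ifit3b) to 1.60 (Ifi27) from their own mean. The named genes are the nearest of all tested genes with a name, so their smaller distances follow from the search. With 4 libraries, such likeness is a description of these libraries.

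Neighbours of Ifi35 and Ifi27 outside the interferon-induced families were read as well. Vat1, 47 bases from Ifi35, measured 7712 and 9048 against 7505 and 11188, and Ddx24, 8381 bases from Ifi27, measured 4605 and 4358 against 4059 and 4460. The 22 protein-coding neighbours of all 9 genes also include the paralogs Ifit1bl1, Ifit1bl2 and Ifi27l2b, and the interferon-stimulated gene Ch25h. Of these 22, 18 were tested, with a median log2 difference of -0.12. By limma 0 of them passed over all genes, and 2, Ch25h and Ptgfr, were lower at an unadjusted p under 0.05 (6.57% of all tested genes). The authors' deposited table calls 1 lower, Ptgfr, where it calls 2.59% of its genes lower.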
